A study of Mus musculus with 9 samples.

Results

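The Golgi apparatus is the organelle in which glycosaminoglycan chains are built, and 47 genes of its scaffold and of the vesicle traffic through it were examined in xyloside-treated Neuro2a cells. The genes were taken by symbol from a list of 48 names. No measured value entered the list, but earlier results of these data were known when it was chosen. The list holds golgins and stacking proteins, the COPI coat, the Arf switch that loads it, the COG tether, the SNAREs of the early Golgi, and cargo and retrieval receptors. Of the 48 names, 47 were among the 24972 gene names of the table. The remaining one, Giantin, is the name of a protein encoded by Golgb1, which the list also holds. All 47 genes passed the filter on low values and were among the 13179 genes tested. Neuro2a is a mouse neuroblastoma line, here wild type, grown in DMEM with serum and antibiotics. Cells received the vehicle DMSO, 500 nM 4-methylumbelliferyl xyloside (LCX) or 1 mM of the same xyloside (HCX) for 48 h before harvest, with 3 libraries per group and 9 in all. The sample titles give this time for LCX and HCX and none for DMSO. The text of the study gives it for all 3 groups, while a figure legend gives a longer one. No source says whether the 3 samples of a group were separate cultures, so p-values measure only the spread between these samples, which may be technical.

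Xylosides enter cells and serve in the Golgi as primers for glycosaminoglycan chains, in place of the xylose that is normally attached to a core protein. Cargo reaches the Golgi in COPII vesicles, and resident enzymes and escaped ER proteins are carried backwards in COPI vesicles, whose coat is recruited by the GTP-bound form of Arf1. Golgins are long coiled-coil proteins on Golgi membranes that catch incoming vesicles, GRASP proteins hold the cisternae together, and the COG complex tethers vesicles that return glycosylation enzymes to earlier cisternae. SNARE proteins then drive fusion, and KDEL receptors send ER residents back.

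The 9 libraries held sums of 34949840 to 36667123 normalized counts, and 12832 to 13040 genes per library reached 10 normalized counts. By median-of-ratios (RLE) factors computed from the deposited values, the DMSO libraries stood 2.93% above the other libraries, and results against DMSO are therefore also given after rescaling. Neuroblast genes were abundant in every library, with a summed level of 10 marker genes of 43360 to 53500 normalized counts. That sum ran from 51730 to 53500 in HCX, from 43360 to 45870 in LCX and from 44390 to 44950 in DMSO. Within it Hand2 (mean of 14065 in HCX and 9787 in DMSO), Chga (11134 and 8077) and Phox2a (6119 and 4830) were higher in HCX without overlap, while Tubb3, with a lower mean in HCX (14376 and 15107), and Th, Dbh and Gata3 overlapped. Sums of 3 markers each for fibroblasts (387.7 to 508.1 in HCX against 626.9 to 731.6 in DMSO), immune cells (13.97 to 22.78 against 28.66 to 39.35), endothelium (146.3 to 210.7 against 218.8 to 242.5) and epithelium (171.1 to 209.3 against 284.5 to 343.7) were lower in HCX, without overlap. The fibroblast sum was mostly Dcn (mean of 307.3 in HCX and 523.4 in DMSO), while Col1a1 averaged 44.1 in HCX and 38.8 in DMSO. The endothelial sum was mostly Pecam1 (mean of 147.2 in HCX and 198.6 in DMSO) and the epithelial sum mostly Krt8 (183.4 and 293.7). The immune sum was mostly Cd68 (14.4 and 28.9), and Cdh5 and Cdh1 overlapped between HCX and DMSO. Kdr was at 0 in all 9 libraries, Epcam reached at most 1.01 and Ptprc at most 3.03. The sums therefore do not show that endothelial, epithelial or immune cells were present. These marker sums moved with the comparisons of HCX below, and their part in them was not tested. In bulk RNA, fewer cells of a type and less RNA per cell cannot be told apart.

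The Golgi genes were well expressed and varied little between libraries. Their means over the 9 libraries ran from 238.8 to 24680 normalized counts with a median of 3051, against a median of 1139 over all genes tested. Within groups the median SD was 0.067 on the log2 scale, against 0.092 over all genes tested. Levels of different genes are compared here as normalized counts per kb of the longest principal transcript (GENCODE vM21). The order of genes depends on this choice. All exons of a gene together can be much longer, with 14915 bases against 4072 for Arcn1 and 5811 against 1482 for Tmed10. Arf1, the small GTPase that recruits the COPI coat, was the most abundant on this scale in each group, with 12277 ± 690 in HCX and 12550 ± 531 in DMSO (SD, n = 3 each). Next came Tmed10, a p24 receptor that packs cargo into COPI and COPII vesicles, at 5236 ± 338 in HCX and 5833 ± 224 in DMSO, and Copz1, a small subunit of the coat, at 5696 ± 368 in HCX and 5718 ± 281 in DMSO. The mean of Tmed10 was above that of Copz1 in DMSO and below it in LCX and HCX, and their ranges overlapped in each group. Of the 31-base stretches in Arf1 transcripts, 17.8% are also in transcripts of other genes, as are 24.7% of those of Tmed2.

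The 7 genes that encode the subunits of the usual COPI coat were not even in level. In DMSO they ran from 1642 ± 75.8 for Copb1 to 5718 ± 281 for Copz1 per kb, with Copa, the largest subunit, at 4136 ± 66. The alternative subunits Copg2 (744 ± 34.7) and Copz2 (489.8 ± 44.2) lay below their paralogs Copg1 (2382 ± 126) and Copz1. All 8 COG genes lay below the 7 usual subunits, from 274 ± 15.7 for Cog8 to 859 ± 12.9 for Cog1 per kb in DMSO, and the ranges of Cog1 and Cog4, of Cog3 and Cog5 and of Cog7 and Cog8 overlapped. Cog1 and Cog4 lay above Copg2. The 3 lowest genes in each group were the same, and in DMSO they were Kdelr3, the scarcest KDEL receptor, at 182 ± 15.5, Trip11, which encodes the golgin GMAP-210, at 176 ± 14.6, and Gorasp1, which encodes GRASP65, at 157 ± 9.75, and the range of Trip11 overlapped that of Kdelr3 and of Gorasp1. In HCX Kdelr3 had the lowest mean of the 3, and its range overlapped both others.

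**Figure D1:**
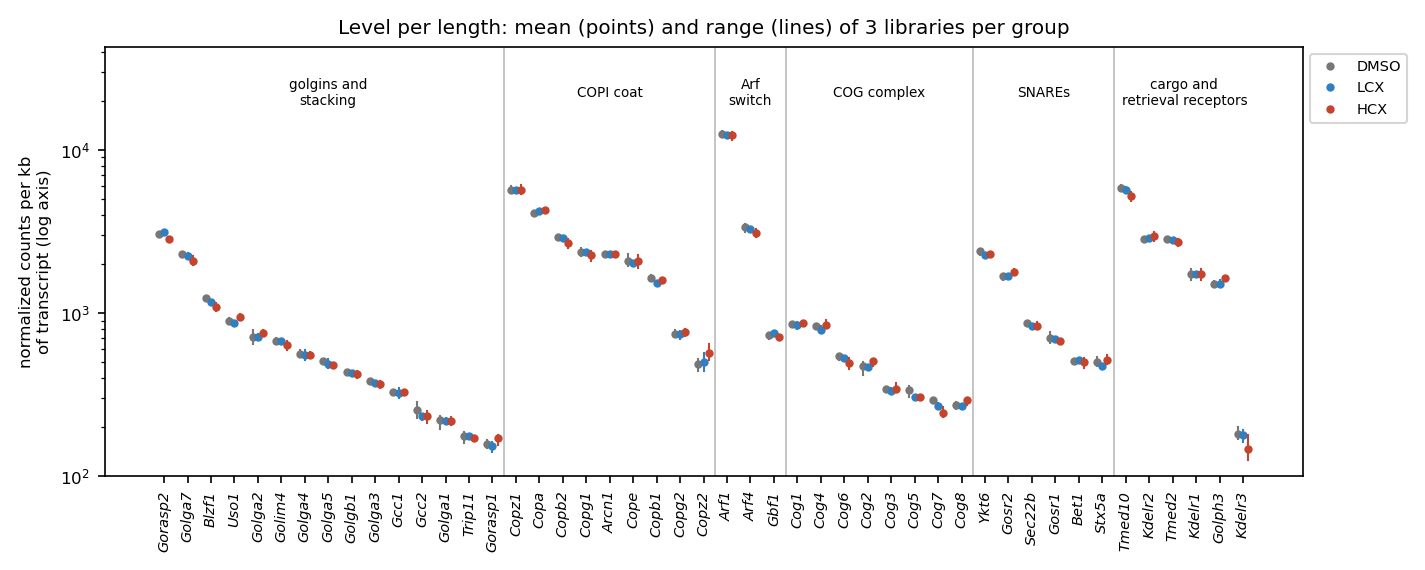
Level of each of the 47 Golgi genes, in normalized counts per kb of transcript on a log axis, as the mean (point) and range (line) of 3 libraries in DMSO, LCX and HCX, with genes grouped by role. The points of the 3 groups nearly coincide for most genes, and Arf1 is the highest at 12550 per kb in DMSO.

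Promoters were read because several of these genes carry a known short element. The Golgi apparatus stress response element (GASE, ACGTGGC) was defined in human cells, where TFE3 binds it in promoters of Golgi genes. RefSeq promoters (GRCm38.p6, 250 bases before to 50 bases after each start, both strands searched) were matched for 41 of the 47 genes, with 47 promoters in all. ACGTGGC was in 9 of these 47 promoters (19.1%), of 8 genes, against 2.58% of all 32851 promoters and 3.7% of the promoters of genes tested. The 8 genes were Arf1, Cog3, Copg1, Copz2, Golga3, Kdelr3, Stx5a and Uso1. The palindrome CACGTG (E-box) was in 12.8% of the promoters of the Golgi genes, against 7.15% of all promoters and 9.87% of those of genes tested, and counted by gene it was in 12.2% against 11.7% of genes tested. The 11 ACGTGGC matches lay at 10 distinct positions, since the windows of the 2 Arf1 starts share one, and 0 of the 11 overlapped CACGTG. The cyclic AMP response element TGACGTCA was in 6.38% of them (Cope, Golph3 and Gosr2), against 1.79% of all promoters and 3.2% of those of genes tested. The ER stress element, CCAAT and CCACG with 9 bases between, was in 0 of the 47, against 0.119% and 0.145%, and CCAAT alone was in 44.7%, against 37.4% and 38.4%. Below are the stretches before a start of 4 genes with ACGTGGC and of the 3 with TGACGTCA, shown because the element sits upstream of a RefSeq start in each. They are written 5′ to 3′ on the strand of the gene, with the matches in capitals, so that GCCACGT is ACGTGGC on the other strand.
Uso1, chr5:92137841-92137937, plus strand: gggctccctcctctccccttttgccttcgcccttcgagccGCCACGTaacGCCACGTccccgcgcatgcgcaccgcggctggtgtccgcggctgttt
Kdelr3, chr15:79516337-79516407, plus strand: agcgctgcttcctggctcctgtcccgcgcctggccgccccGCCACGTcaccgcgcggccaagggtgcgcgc
Arf1, chr11:59228198-59228284, minus strand: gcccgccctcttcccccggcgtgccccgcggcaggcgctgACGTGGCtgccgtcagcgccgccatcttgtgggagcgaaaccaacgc
Cog3, chr14:75754569-75754655, minus strand: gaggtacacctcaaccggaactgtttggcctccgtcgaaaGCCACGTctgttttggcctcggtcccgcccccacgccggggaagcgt
Golph3, chr15:12321393-12321480, plus strand: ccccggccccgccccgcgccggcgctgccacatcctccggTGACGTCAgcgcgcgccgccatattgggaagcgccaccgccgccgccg
Gosr2, chr11:103697900-103697973, minus strand: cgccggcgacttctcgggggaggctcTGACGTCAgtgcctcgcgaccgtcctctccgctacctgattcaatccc
Cope, chr8:70302517-70302604, plus strand: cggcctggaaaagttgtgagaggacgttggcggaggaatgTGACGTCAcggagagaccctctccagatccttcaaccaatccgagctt
In Uso1, which encodes the vesicle tether p115, the matches begin 57 and 47 bases before the start, and in Kdelr3 the match begins 31 bases before it. In Arf1 the match begins 82 bases before one start and 23 bases after the other. In Cope the match begins 210 bases before the RefSeq start, but the GENCODE gene begins at 70302518, upstream of the match. A match is a description and not a site or a cause, and no match says only that these letters are not in the window. None of the 8 genes with ACGTGGC was called in a comparison below as the values were deposited.

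HCX was set against DMSO to ask whether the high xyloside dose changed the RNA of this machinery. Of the 47 genes, 0 were higher and 4 were lower in HCX at an adjusted p under 0.05 (limma, Benjamini-Hochberg over all genes tested), which is 8.51% against 19.2% of all genes tested (5.73% higher and 13.5% lower). The 4 were Blzf1, Cog7, Tmed10 and Golga7. Of the 10068 genes with a mean at least that of Kdelr3, the lowest of the Golgi genes, 22.7% were called. None of the 47 passed at 2-fold, which 0.819% of all genes tested did, and 10 of the 47 had an unadjusted p under 0.05, against 32.4% of all genes tested. HCX and DMSO libraries did not overlap for 7 of the 47 genes, against 32.8% of all genes tested. Golph3 and Gosr2 were the 2 that were higher, and Gorasp2 was lower beside the 4 called. The median log2 fold change over the 47 genes was -0.03, against -0.04 over all genes tested, and the median size of the change was 0.066, against 0.123 over all genes tested and 0.102 over genes at or above the mean of Kdelr3. The 95% interval of the fold change lay within 1.2-fold in either direction for 38 of the 47 genes, against 42.6% of all genes tested and 55.8% of genes at or above the mean of Kdelr3, a width that was chosen after the data were seen. The 9 genes outside it were Gorasp1, Gcc2, Blzf1, Copz2, Cog5, Cog6, Cog7, Tmed10 and Kdelr3.

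**Figure D2:**
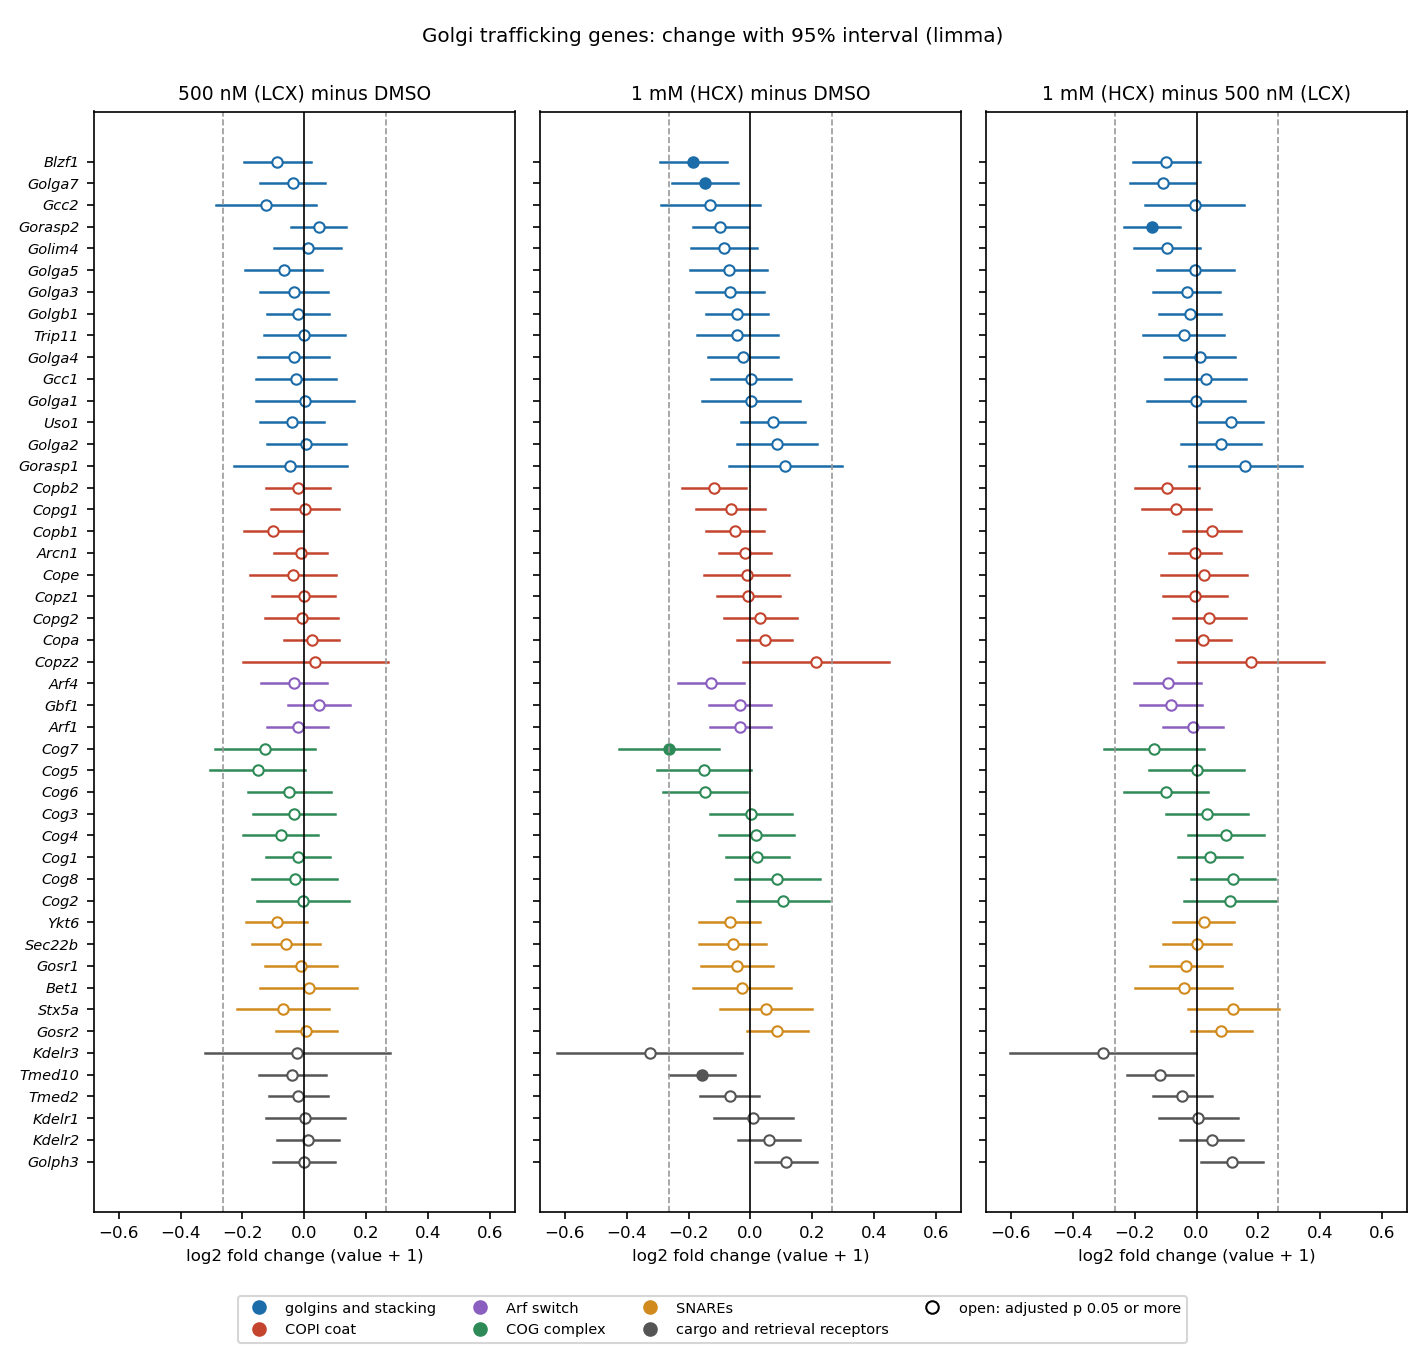
Log2 fold change (of the value plus 1) with its 95% interval for each of the 47 genes in LCX minus DMSO, HCX minus DMSO and HCX minus LCX, coloured by role, with filled points at adjusted p under 0.05 and dashed lines at 1.2-fold. There are 0 filled points in the first comparison, 4 in the second and 1 in the third.

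**Figure D3:**
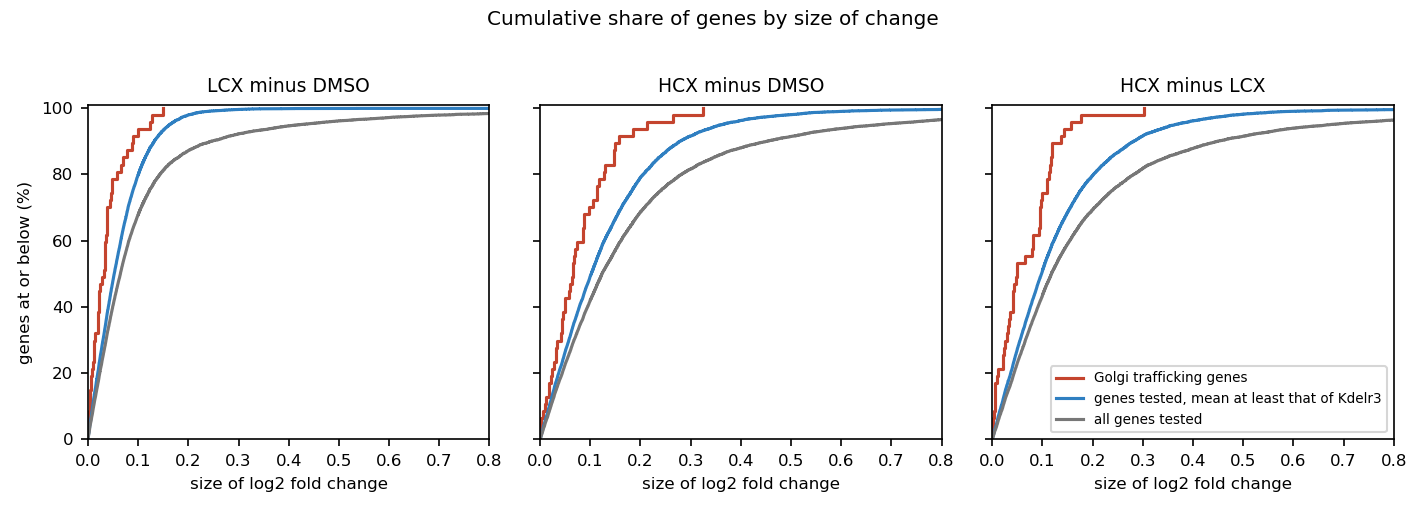
Cumulative share of genes (%) by the size of their log2 fold change, for the 47 Golgi genes, for the 10068 genes tested with a mean at least that of Kdelr3, and for all 13179 genes tested. In each comparison the curve of the Golgi genes lies to the left, with a median of 0.066 for HCX minus DMSO against 0.102 and 0.123.

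Among the 15 genes of golgins and stacking proteins, 2 fell in HCX against DMSO, which is 13.3%, against 19.2% of all genes tested (13.5% lower). Blzf1 encodes golgin-45, a medial Golgi golgin that binds GRASP55. It had 2967, 2983 and 3088 normalized counts with DMSO, 2814, 2779 and 2916 with LCX and 2787, 2676 and 2494 with HCX. Every HCX library lay below every DMSO library, and HCX and LCX overlapped. Blzf1 fell by 11.9% (log2 fold change -0.18, SE 0.05, limma adjusted p = 0.0167). Golga7, whose protein is known from human cells as a partner of a palmitoyltransferase that modifies Ras, had 4397, 4439 and 4562 normalized counts with DMSO, 4539.9, 4257 and 4259 with LCX and 4331, 3856 and 3922 with HCX. All HCX libraries lay below all DMSO libraries, HCX replicate 1 only just. Golga7 fell by 9.62% (log2 fold change -0.15, SE 0.05, limma adjusted p = 0.0465).

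The other 13 were not called, with log2 fold changes of -0.13 (Gcc2, a trans-Golgi golgin) to 0.11 (Gorasp1). Golga2, which encodes the cis-Golgi golgin GM130, had a log2 fold change of 0.09 (95% interval -0.04 to 0.21), and its binding partner Uso1 one of 0.07 (-0.03 to 0.18). Golgb1 had -0.04 (-0.14 to 0.06) and Trip11 -0.04 (-0.17 to 0.09).

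Of the 9 COPI coat genes 0 were called by limma, against 19.2% of all genes tested, and limma-voom called 0, against 16.9%. Only 1 (Copb2, log2 fold change -0.12) had an unadjusted p under 0.05, against 32.4% of all genes tested. The log2 fold changes of the 7 usual subunits lay between -0.12 and 0.05. Copg1 had 9895, 10361 and 9322 normalized counts with DMSO, 9936, 9707 and 9949 with LCX and 9992, 9744 and 8597 with HCX, and its paralog Copg2 had 2909, 2829.9 and 3097, 2949, 2752 and 3085 and 3176, 3006 and 2856 in the same groups. All 3 groups overlapped for both paralogs. Exons on the other strand cover 17.8% of the exonic bases of Copg2. Copz1 had 9433, 10112 and 9207 with DMSO, 9621, 9576 and 9494 with LCX and 10209.6, 9439 and 8991 with HCX, with full overlap. Copz2, which replaces Copz1 in some coats, had 408, 474 and 484 with DMSO, 409, 468 and 528 with LCX and 604, 479 and 505 with HCX. The highest Copz2 value was in HCX replicate 1, and the groups overlapped. Its log2 fold change of 0.21 (95% interval -0.02 to 0.45) was not called (limma adjusted p = 0.201), and the interval allows a change of over 1.2-fold.

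The 3 genes of the Arf switch gave 0 calls by limma and by limma-voom, with 1 (Arf4) at an unadjusted p under 0.05. Of all genes tested, limma called 19.2% and limma-voom 16.9%, and 32.4% had such an unadjusted p. Arf1 had 25065, 26003 and 23891 normalized counts with DMSO, 24552, 24882 and 24410.3 with LCX and 25569, 24849 and 22912 with HCX, and the groups overlapped. Arf4, another Golgi Arf that GBF1 activates, had 7524, 7633 and 6812 with DMSO, 7080.1, 7246 and 7117 with LCX and 7122, 6684 and 6312 with HCX. HCX replicates 2 and 3 of Arf4 lay below every DMSO library and HCX replicate 1 lay among them. Its log2 fold change was -0.13 (SE 0.05, limma adjusted p = 0.0906). Arf4 was called lower when DMSO replicate 3 (-0.18, adjusted p = 0.0252) or HCX replicate 1 (-0.17, adjusted p = 0.0357) was left out. These were the 2 calls among 18 alternative fits, which ran from -0.18 to -0.07 with adjusted p-values up to 0.38. Gbf1, which encodes their exchange factor, had a log2 fold change of -0.03 (-0.13 to 0.07). Antisense or neighbouring exons cover 17.7% of the exonic bases of Arf4, and the strand setting of the counting is not given in the sources used here.

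In the COG complex, 1 of 8 genes fell, which is 12.5%, against 19.2% of all genes tested (13.5% lower). Cog7 encodes a subunit of the COG lobe that also holds Cog5, Cog6 and Cog8, and in humans its loss causes a congenital disorder of glycosylation. It had 878, 818 and 864 normalized counts with DMSO, 784, 749 and 811 with LCX and 669, 693 and 772 with HCX. All HCX and all LCX libraries lay below all DMSO libraries, and HCX and LCX overlapped. Cog7 fell by 16.6% in HCX against DMSO (log2 fold change -0.26, SE 0.08, limma adjusted p = 0.021). Of the other 7, Cog5 (-0.15) and Cog6 (-0.15), of the same lobe, had the lowest log2 fold changes and Cog2 (0.10) the highest, and none of these was called. Cog5 was called only when DMSO replicate 2 was left out (log2 fold change -0.22, adjusted p = 0.0438). Cog8 shares 28.2% of its exonic bases with Pdf on the same strand, so its counts are uncertain.

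None of the 6 SNARE genes was called by limma, against 19.2% of all genes tested, and 0 had an unadjusted p under 0.05, against 32.4%. With limma-voom, which called 16.9% of all genes tested, Gosr2 was higher. Gosr2, which encodes membrin and is described per library after its values were seen, had 5640.2, 5215 and 5604 normalized counts with DMSO, 5447, 5612 and 5469 with LCX and 6114, 5673 and 5695 with HCX. Its HCX libraries lay above all DMSO and all LCX libraries. The log2 fold change against DMSO was 0.09 (SE 0.05, limma adjusted p = 0.208). The others ranged from -0.07 for Ykt6 to 0.05 for Stx5a, the syntaxin of the ER-Golgi and early Golgi fusion complexes, and Sec22b, the R-SNARE of ER-Golgi traffic, had -0.06 (-0.17 to 0.05).

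Among the 6 cargo and retrieval genes, 1 fell, which is 16.7%, against 19.2% of all genes tested (13.5% lower). Tmed10 had 8521, 9021 and 8393 normalized counts with DMSO, 8449.8, 8026 and 8784 with LCX and 7877, 8193 and 7211 with HCX. All HCX libraries lay below all DMSO libraries, with HCX replicate 3 the lowest. Tmed10 fell by 10.2% (log2 fold change -0.16, SE 0.05, limma adjusted p = 0.0362). Its p24 partner Tmed2 had a log2 fold change of -0.07 (-0.16 to 0.03) and was not called.

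The KDEL receptors, which retrieve ER proteins that carry the KDEL signal, were not called. Kdelr1 had 2771, 2989 and 2561 normalized counts with DMSO, 2755, 2784 and 2785 with LCX and 2971, 2837 and 2565 with HCX. Kdelr2 had 5228, 5206 and 5181 with DMSO, 5219, 5388 and 5139.9 with LCX and 5744, 5489 and 5071 with HCX, and the groups overlapped for both. Kdelr3 had 280.5, 252 and 237 with DMSO, 228, 258 and 272 with LCX and 253, 191 and 176 with HCX. HCX replicates 2 and 3 of Kdelr3 lay below all DMSO and LCX libraries, and HCX replicate 1 lay among them. The log2 fold change of Kdelr3 against DMSO was the largest in size of the 47, at -0.33 (SE 0.14, limma adjusted p = 0.121). Without HCX replicate 1 it was -0.48 (adjusted p = 0.0298), the 1 call among 18 alternative fits. Over these fits it ran from -0.48 to -0.22, with adjusted p-values up to 0.361.

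Golph3 encodes a lipid-binding adaptor that keeps glycosyltransferases in the Golgi through the COPI coat, and it too is given per library after its values were seen. It had 4149, 3921 and 3941 normalized counts with DMSO, 3920.2, 4224 and 3873 with LCX and 4245, 4417 and 4336 with HCX. Every HCX library lay above every DMSO and LCX library. The log2 fold change against DMSO was 0.11 (SE 0.05, limma adjusted p = 0.104) and was not called at the deposited scale. Antisense exons cover 13.8% of its exonic bases.

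**Figure D4:**
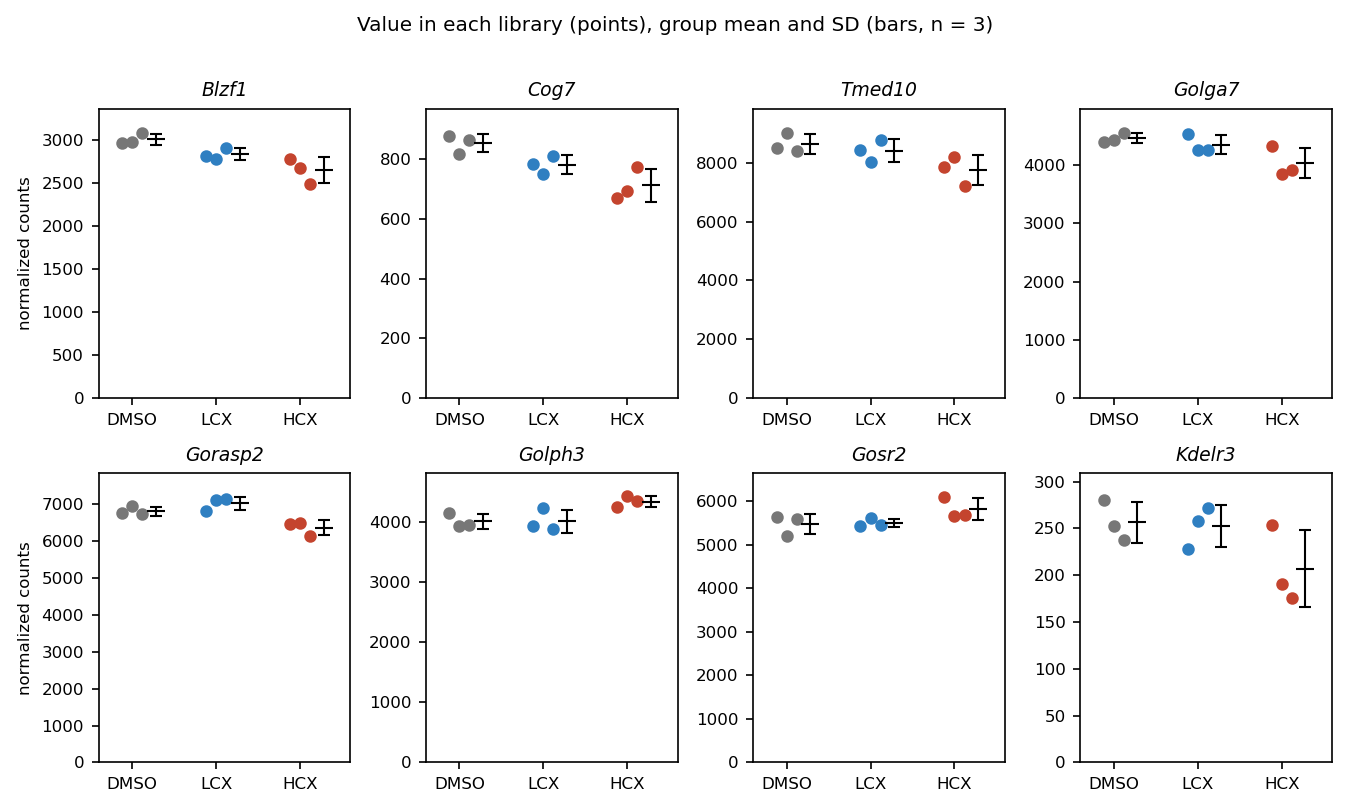
Normalized counts in each library (points) with the group mean and SD (bars, n = 3) for 8 genes in DMSO, LCX and HCX, on axes that start at 0. Blzf1, Cog7, Tmed10 and Golga7 are lowest in HCX, Golph3 and Gosr2 highest, and 1 of the 3 HCX values of Kdelr3 lies among those of DMSO.

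Which of these genes were called against DMSO depended on the scale of the libraries. Overlap of normalized counts between groups was read only at the deposited scale, and a separation from DMSO can depend on that scale too. After RLE scaling, 1 gene was called, Golph3, higher (log2 fold change 0.16, adjusted p = 0.0306), and 0 were lower. Scaled to equal sums, or with limma-voom, Golph3 (0.17, adjusted p = 0.0189 at equal sums) and Gosr2 (0.14, adjusted p = 0.0376) were called higher and 0 lower. After RLE scaling Blzf1 stood at -0.14 (adjusted p = 0.0631), Cog7 at -0.22 (0.0533), Tmed10 at -0.12 (0.132) and Golga7 at -0.11 (0.163). Tmed10 and Golga7 were also not called without a filter on low values (adjusted p of 0.065 and 0.0656) or in a fit to the 6 libraries compared (0.0631 and 0.082). Leaving out 1 library also ended calls. That of Blzf1 was lost without DMSO replicate 3 (-0.17, adjusted p = 0.0546) or HCX replicate 3 (-0.14, adjusted p = 0.074). That of Cog7 was lost without DMSO replicate 1 or 3 or HCX replicate 1 or 2 (adjusted p of 0.0533 to 0.0852), and that of Tmed10 without DMSO replicate 1 or 2, LCX replicate 1 or HCX replicate 1 or 3 (0.0525 to 0.154). Golga7 kept its call only without HCX replicate 1 among these fits and had adjusted p-values of 0.0576 to 0.182 without any other library. The direction of all 6 genes was the same at each scale, and the median over the 47 genes turned positive, to 0.01 with RLE and 0.03 at equal sums. The split over all genes tested moved likewise, with 755 higher and 1781 lower as deposited and 1116 higher and 1129 lower with RLE.

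**Figure D5:**
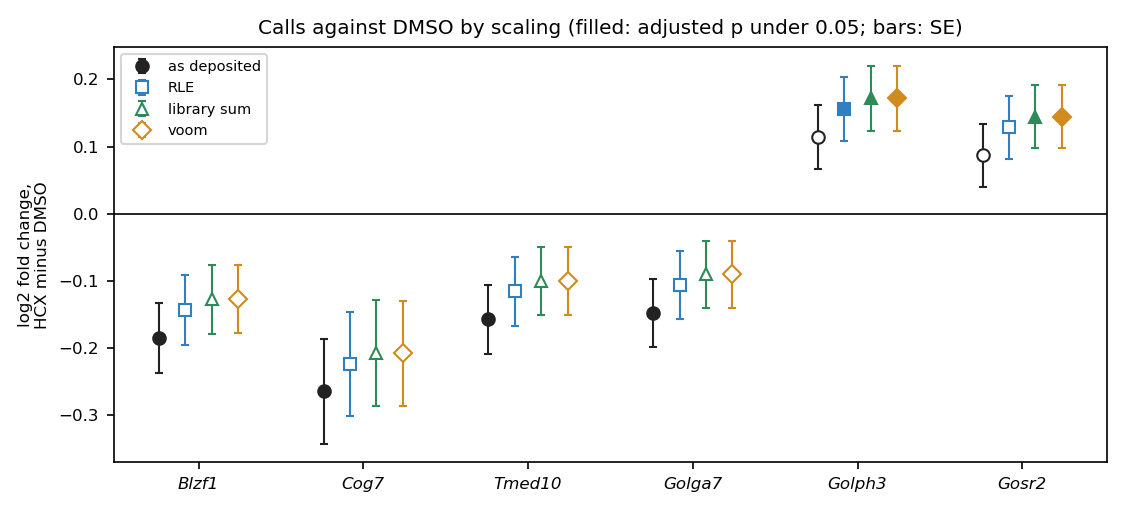
Log2 fold change in HCX minus DMSO (points, bars SE) of 6 genes as deposited, after RLE scaling, at equal library sums and with limma-voom, with filled points at adjusted p under 0.05. Blzf1, Cog7, Tmed10 and Golga7 are filled only as deposited, Golph3 only after rescaling and Gosr2 only at equal sums and with limma-voom, and no gene changes side.

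Against LCX, the question was whether the high dose differed from the low dose of the same xyloside. HCX differed from LCX in 1 of the 47 genes, Gorasp2, which was lower. That is 2.13% against 17.3% of all genes tested, where 8.35% were higher and 8.95% lower, and against 20.3% of genes at or above the mean of Kdelr3. At 2-fold 0 of the 47 were called, against 0.797% of all genes tested, and 6 had an unadjusted p under 0.05, against 31.1%. The HCX and LCX libraries had nearly the same RLE factors, 0.9898 to 0.9911. Gorasp2 encodes GRASP55, the stacking protein of medial and trans cisternae to which golgin-45 binds. It had 6759.9, 6943 and 6724 normalized counts with DMSO, 6829, 7114 and 7151 with LCX and 6466, 6491 and 6140.0 with HCX. All HCX libraries lay below all LCX and all DMSO libraries. Gorasp2 fell by 9.47% against LCX (log2 fold change -0.14, SE 0.04, limma adjusted p = 0.026), a call that held at all 3 other scalings and was lost without LCX replicate 2, LCX replicate 3 or HCX replicate 3 (log2 fold changes of -0.14 to -0.12, adjusted p of 0.0875 to 0.106). Against DMSO its log2 fold change was -0.10 (adjusted p = 0.122). Its paralog Gorasp1 had 614, 578 and 654 with DMSO, 551, 605 and 632 with LCX and 693, 609.8 and 694 with HCX. Those groups overlapped, and its log2 fold change against LCX was 0.16 (adjusted p = 0.235). Exons of Wdr48 cover 32.1% of the exonic bases of Gorasp1 on the other strand, so its counts are uncertain.

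HCX and LCX libraries did not overlap for 8 of the 47 genes, 6 higher and 2 lower (Gorasp2 and Gbf1), against 36.5% of all genes tested. The median log2 fold change was -0.0014 over the 47 genes and -0.0002 over all genes tested, and the median size was 0.048, against 0.098 over genes at or above the mean of Kdelr3. The interval lay within 1.2-fold for 42 of the 47, against 43.8% of all genes tested and 57.3% of genes at or above the mean of Kdelr3, and the 5 outside it were Gorasp1, Copz2, Cog7, Stx5a and Kdelr3. For the genes that fell against DMSO, the log2 fold changes against LCX were -0.10 (Blzf1), -0.14 (Cog7), -0.12 (Tmed10) and -0.11 (Golga7), with adjusted p-values of 0.208, 0.243, 0.118 and 0.146. The comparisons against LCX and against DMSO share the HCX libraries. Without HCX replicate 1, 3 genes were called lower against LCX, Gorasp2, Golga7 and Kdelr3 (-0.46, adjusted p = 0.0402). Golga7 and Kdelr3 were each called against LCX in this 1 of 18 alternative fits only.

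LCX, the low dose, was set against DMSO, and 0 of the 47 genes were called by limma or limma-voom, against 0% of all genes tested. At an unadjusted p under 0.05 stood 1 of the 47, Copb1, and 807 of all genes tested (6.12%) as deposited. After RLE scaling these counts were 0 and 427, at equal sums 0 and 419, and with limma-voom 0 and 426. Copb1, the beta subunit of the COPI coat, had 5219, 5056 and 5096 normalized counts in LCX and 5468, 5761 and 5256 in DMSO. Every LCX library lay below every DMSO library, and the log2 fold change was -0.10 (SE 0.05, limma adjusted p = 0.801). Cog5 had 916, 935 and 891 in LCX and 1054, 919.5 and 1076 in DMSO, with overlap (log2 fold change -0.15, SE 0.07, adjusted p = 0.801). The groups did not overlap for 4 of the 47 genes (Blzf1, Cog7, Copb1 and Sec22b, all lower in LCX), against 12.9% of all genes tested. Over all genes tested these were 1695, of which 1465 were lower in LCX. Overlap was read at the deposited scale only, where the DMSO libraries stood 2.93% above the others. The 95% interval lay within 1.2-fold for 42 of the 47 genes, against 59.6% of all genes tested and 78.1% of genes at or above the mean of Kdelr3. The 5 genes outside it were Gcc2, Copz2, Cog5, Cog7 and Kdelr3. The median log2 fold change was -0.02, and 0.02 after RLE scaling.

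Ratios of paralogs within a library do not depend on the scale of the library. Arf4 stood at 27.85, 26.9 and 27.55 per 100 Arf1 in HCX, against 28.84, 29.12 and 29.15 in LCX and 30.02, 29.35 and 28.51 in DMSO. The HCX ratios lay below those of both other groups (two-sided exact permutation p = 0.1 in each case, the smallest that 3 against 3 can give, and 0.4 when adjusted over the 18 ratio comparisons made). Gorasp1 stood at 10.71, 9.395 and 11.3 per 100 Gorasp2 in HCX, against 8.075, 8.511 and 8.838 in LCX (exact p = 0.1, adjusted 0.4) and 9.077, 8.318 and 9.722 in DMSO (exact p = 0.2). Kdelr3 stood at 4.413, 3.475 and 3.472 per 100 Kdelr2 in HCX, against 4.367, 4.795 and 5.296 in LCX, with overlap (exact p = 0.2, adjusted 0.4), and 5.365, 4.847 and 4.583 in DMSO, without overlap (exact p = 0.1, adjusted 0.4). The ratios of Copg2 to Copg1, of Copz2 to Copz1 and of Kdelr1 to Kdelr2 gave exact p-values of 0.2 to 1. No ratio between LCX and DMSO had an exact p under 0.3.

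Within HCX, replicate 1 had the highest value for 28 of the 47 genes and replicate 3 the lowest for 29. The same was not counted over all genes tested or within DMSO and LCX, so this order is not shown to be particular to HCX or to these genes. HCX replicate 3 also had the lowest sum of all libraries, at 34949840 normalized counts. Summed over the 47 genes, HCX held 210732, 206943 and 197597 normalized counts, against 205742, 205029 and 210145 in LCX and 211157, 212064 and 205567 in DMSO. As a share of the library this was 0.565% to 0.596% in HCX, 0.576% to 0.589% in LCX and 0.561% to 0.579% in DMSO, which overlap.

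Neighbouring trafficking genes were read in the same fit, as lists of other genes of the pathway chosen with earlier results of these data known. Of 19 other p24 proteins and ER-Golgi cargo receptors tested, 0 were higher and 4 were lower in HCX against DMSO, which is 21.1%, close to the 19.2% of all genes tested. After each rescaling 1 was lower. Lman2, which encodes the lectin VIP36, had 6693, 6818 and 6188 normalized counts in HCX against 7409, 7777 and 7389 in DMSO, without overlap. Its log2 fold change was -0.20 (limma adjusted p = 0.00516), called also in all 18 alternatives. Surf4 (-0.15), a receptor for soluble cargo, Lman1 (-0.18), the lectin ERGIC-53, and Mcfd2 (-0.18), its partner in the export of clotting factors, fell too as deposited and were not called after any rescaling. The call of Lman1 was also lost without DMSO replicate 1 or HCX replicate 3 (adjusted p of 0.0527 and 0.0634), and that of Mcfd2, named here after its values were seen, without DMSO replicate 2 or HCX replicate 2 or 3 or in the fit to 6 libraries (0.0523 to 0.0806). The median over the 19 was -0.07, against -0.04 over all genes tested, and it was -0.03 after RLE scaling and -0.01 at equal sums, against 0.00088 and 0.02 over all genes tested. Against LCX, Tmed1, another p24 protein, was higher (0.28, adjusted p = 0.0307) and 3 were lower, Mcfd2, Lman2 and Surf4, again 21.1%, against 17.3% of all genes tested. Tmed1 averaged 878 normalized counts with DMSO, 741 with LCX and 899 with HCX. LCX was the low group, and HCX overlapped DMSO (log2 fold change 0.03). The call of Tmed1 was lost without a filter on low values (adjusted p = 0.0537) and without LCX replicate 2 or 3 or HCX replicate 1 (adjusted p of 0.0825 to 0.175), that of Mcfd2 without LCX replicate 1 or 3 (0.0561 and 0.0583), that of Lman2 without LCX replicate 1 or 2 or HCX replicate 3 (0.0556 to 0.0739), and that of Surf4 without any LCX library or HCX replicate 2 or 3 (0.0632 to 0.113) and at equal sums (0.0661) or with limma-voom (0.0657).

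Of 21 tested genes of the NRZ tether, trans-Golgi tethers and other Golgi SNARE proteins, 3 fell in HCX against DMSO, which is 14.3%, against 19.2% of all genes tested (13.5% lower). Napb, a SNAP that takes apart used SNARE complexes, had 2064, 2292 and 2137 in HCX against 2734, 3124 and 2512 in DMSO, without overlap (log2 fold change -0.36, adjusted p = 0.00175). Nbas, of the NRZ tether that receives COPI vesicles at the ER, had 1558, 1593 and 1519 in HCX against 1987, 1819 and 1872 in DMSO (log2 fold change -0.28, adjusted p = 0.00181). Both were called at every scaling and lower than in LCX as well (-0.29 and -0.27), while Napa (-0.18 against DMSO) was not called after rescaling, in the fit to 6 libraries (adjusted p = 0.0637), nor without DMSO replicate 1 or 2 or HCX replicate 2 or 3 (adjusted p of 0.0704 to 0.118). Napa was lower than in LCX too (-0.18, adjusted p = 0.0406), a call lost at equal sums, with limma-voom, without a filter on low values and without DMSO replicate 1, LCX replicate 2 or 3 or HCX replicate 2 or 3 (0.0507 to 0.143). Against LCX, Napb was not called without LCX replicate 3 (adjusted p = 0.0652). Of the 18 tested genes of the COPII coat and ER exit, 2 were called against DMSO, which is 11.1% against 19.2%. Tfg, which organises ER exit sites, was higher (0.16, adjusted p = 0.0395) and called at every scaling, but not without a filter on low values, in the fit to 6 libraries, or without DMSO replicate 1 or 3, LCX replicate 1 or 2 or HCX replicate 1 or 2 (adjusted p of 0.0544 to 0.188). Against LCX it was called at equal sums and with limma-voom but not as deposited or after RLE scaling. Mia2, which helps export large cargo, was lower (-0.13, adjusted p = 0.0273) as deposited and not called after rescaling, in the fit to 6 libraries, nor without any DMSO library or HCX replicate 2 or 3 (0.0529 to 0.0781).

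The 14 TRAPP genes gave 0 calls against DMSO in limma as deposited, against 19.2% of all genes tested. At an unadjusted p under 0.05 stood 2 of them, against 32.4% of all genes tested. Named after their values were seen, Trappc2 (0.25, adjusted p = 0.046 with RLE) and Trappc10 (0.15, adjusted p = 0.0462) were called higher after RLE scaling, at equal sums and with limma-voom. Trappc11, the TRAPP gene of highest mean, had a log2 fold change of 0.02. The 19 tested genes of other Arf proteins, their regulators and Golgi Rabs gave 0 as deposited, with 3 at an unadjusted p under 0.05. Of all genes tested, 19.2% were called and 32.4% had such an unadjusted p. Rab2b, named after its values were seen, was called higher at each of the 3 other scalings (0.23, adjusted p = 0.0249 with RLE), and Arf3, of highest mean, had -0.11. Against LCX, Rab2b and Arfgap3 were called higher at equal sums and with limma-voom but not as deposited or after RLE scaling. Also against LCX, 1 TRAPP gene, Trappc10, was higher (0.15, adjusted p = 0.0353), a call lost without any LCX library or HCX replicate 1 or 3 (0.0568 to 0.153). That is 7.14% of the TRAPP genes, against 17.3% of all genes tested.

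Of the 11 tested Golgi stress genes, known as such from human cells, 0 were higher and 2 were lower in HCX against DMSO, which is 18.2%, close to the 19.2% of all genes tested. After each rescaling 1 was higher and 1 lower. Tfe3, which encodes the factor that binds ACGTGGC in human cells, had 3246, 3359 and 3009 in HCX, against 3879, 3796 and 3918 in LCX and 3883, 3919.8 and 3646 in DMSO, without overlap. Its log2 fold change was -0.25 against DMSO (adjusted p = 0.00179) and -0.27 against LCX (adjusted p = 0.00104), and it was called in all 18 alternatives of both. Klf4, a transcription factor, was lower against DMSO (-0.29, adjusted p = 0.0359) as deposited and not called after rescaling, without a filter on low values (0.0588), in the fit to 6 libraries (0.0623), nor without DMSO replicate 1 or HCX replicate 1 or 3 (0.0941 to 0.173). Creb3l2, a membrane-bound transcription factor of the secretory pathway, was higher against LCX (0.15, adjusted p = 0.042), a call lost without a filter on low values (0.0521) and without any LCX library or HCX replicate 1 or 3 (0.0633 to 0.159). Against DMSO it had 0.14 (adjusted p = 0.0645) as deposited and was called higher after each rescaling (0.18, adjusted p = 0.02 with RLE). In every one of these 6 lists limma and limma-voom called 0 genes between LCX and DMSO at an adjusted p under 0.05. At an unadjusted p under 0.05 stood 0 to 4 per list as deposited. The 4 were among the 21 genes of the NRZ tether, trans-Golgi tethers and other Golgi SNARE proteins. In that list 1 remained after RLE scaling, at equal sums and with limma-voom. Of all genes tested, 0% were called and 6.12% had such an unadjusted p as deposited.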

How the data were processed

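Poly(A) RNA of 9 Neuro2a samples was sequenced as stranded TruSeq libraries. Per the labels, the tools were Bowtie, TopHat2 and Partek and the build mm10, and versions, annotation and strand setting are not given in the sources used here. The authors deposited 1 table of signal per gene and library, namely normalized counts from which whole reads could not be recovered, so count tests were not used. It holds 24972 gene names and 0 value columns that match no sample. The sums stand for depth, since raw totals are unknown.

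Values were taken as log2(value + 1), a gene was tested if 3 or more libraries reached 10 normalized counts (13179 genes), and limma-trend was fitted with 1 term per group over all 9 libraries (6 residual and 13.8 prior degrees of freedom), with p-values adjusted by Benjamini and Hochberg per comparison and calls at adjusted p under 0.05. Fold changes of log2(value + 1) understate those of low genes. The fit was tested on simulated data with known changes in each comparison. Genes were placed with GENCODE vM21 and promoters taken from RefSeq. Fits were made in limma 3.58.1 under R 4.3.3, and plots in matplotlib 3.10.9 with pandas 2.3.3, under Python 3.11.15.

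Alternatives were RLE or equal-sum scaling, limma-voom, other filters, pseudocounts of 0.5 or 10, a replicate block, the 6 libraries compared, and leaving out each library. Genes and lists were chosen with earlier results of these data known, and the 1.2-fold width for intervals after the data were seen. Values per library are given for genes called in an HCX comparison, the KDEL receptors, 4 paralog pairs and the 2 genes of smallest p between LCX and DMSO, and each related list names up to 3 called genes or else the 1 of highest mean; exceptions are marked. The glial marker list is not reported here.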

Additional observations from a re-analysis of the deposited data

How the results depend on the processing

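Calls against DMSO depended on the scale of the libraries. The number of Golgi genes called between HCX and DMSO was 4 as deposited, 1 after RLE scaling, 2 at equal library sums, 2 with limma-voom, 2 without a filter on low values and 2 in a fit to the 6 libraries compared, and 1 to 4 when each library was left out. It was 4 with either other pseudocount, with the filter in every library and with the replicate block. The median log2 fold change of the 47 genes between HCX and DMSO, -0.03236 as deposited, was 0.009227 after RLE scaling, 0.02513 at equal sums and 0.02514 with limma-voom, and that between LCX and DMSO, -0.02161 as deposited, was 0.02011, 0.01778 and 0.01781. Between HCX and LCX 1 gene was called in each alternative but the removal of single libraries, which gave 0 to 3. Between LCX and DMSO 0 of the 47 were called in all 18 alternatives, and over all genes 3 were called with the replicate block and 2 in the fit to 6 libraries. Over all genes between HCX and LCX, 2280 were called, and 1374 to 1514 without an LCX library. Of the fits of single Golgi genes, 38 lost and 11 gained a call and 0 called ones changed sign. The labels do not say what a replicate number shares, and correlations of the deviations of same-numbered libraries were -0.104 to 0.104. Between DMSO and HCX they were 0.0672 to 0.104, against -0.0712 to -0.0171 for libraries of different number. Deviations were taken from group means, so the correlations of a library with those of another group tend to cancel. The ranges are therefore not independent of each other, and pairing was not tested. Between LCX and either other group, same-numbered libraries had correlations of both signs. With the replicate block the counts of Golgi genes called were as without it (4, 1 and 0 in the comparisons of HCX with DMSO, HCX with LCX and LCX with DMSO). Of the related genes, the block ended the calls of Tfg between HCX and DMSO (adjusted p = 0.0513) and of Surf4 (0.0557) and Napa (0.0534) between HCX and LCX. The spread between libraries was largest for Kdelr3 and Copz2, whose intervals, like that of Cog7, reached past 1.2-fold in every comparison. The cause of the differences between scalings was not tested.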
